A study of Danio rerio with 24 samples.

Results

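The genes described here are 10 zebrafish genes of retinoic acid signalling, chosen by name: the nuclear receptors *rarga*, *rargb*, *raraa*, *rarab* and *rxraa*, and the enzymes *aldh1a2*, *cyp26a1*, *cyp26b1*, *dhrs3a* and *dhrs3b*. Of these, 9 matched a single row each among the 18987 genes listed. The name *rargb* matched 0 rows, as did its 4 synonyms in RefSeq (GRCz12tu), and this gene was not analysed here. The series holds 24 samples of ventricles from adult wild-type zebrafish in 6 groups of 4, each sample being a pool of 3 or 4 ventricles. Cryoinjured fish, whose ventricle is damaged by freezing and then regenerates, were either exercised by swimming or non-exercised (16 samples), and sham-operated fish were non-exercised (8 samples), with ventricles taken at 7 and 14 days post injury (dpi). Exercised fish swam daily in a tunnel from the third day after the injury, and atrium and bulbus arteriosus had been removed by dissection.

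Retinoic acid is made from vitamin A. Retinol is first oxidized to retinal, an aldehyde dehydrogenase such as Aldh1a2 oxidizes retinal to retinoic acid, and Cyp26 enzymes break retinoic acid down. Dhrs3 runs the first step backwards and so returns retinal to retinol. Retinoic acid binds retinoic acid receptors (RARs), which sit on DNA as pairs with retinoid X receptors (RXRs) and switch target genes on or off. In the zebrafish heart, *aldh1a2* is known as a gene of the epicardium and endocardium that responds to injury.

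The value used for each gene was the authors' mean normalized read count, which is the read count of a gene divided by a size factor for each sample and averaged over the samples of their model. The table used here gives 1 such number per gene and no value per sample. No SD, interval or depth per sample can therefore be given, and exercised and non-exercised ventricles could not be compared from counts. The study's methods name exercised and non-exercised pools from cryoinjured fish for sequencing, and the table compares these groups. Whether all of them, or the sham-operated samples too, entered the mean is not stated in the sources used here. The mean counts of all genes listed summed to 11824275, their median was 79.6 and their quartiles were 17.3 and 266.1. Counts were not divided by transcript length, and a longer transcript yields more reads at an equal number of molecules. A larger count below therefore means more reads assigned to a gene, and the genes were not ranked by expression. As ventricles were processed whole, a count does not tell which cells held the RNA, nor how many cells against how much RNA in each.

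The labelled tissue was checked against its markers. The myosin and troponin genes of cardiomyocytes *myl7*, *cmlc1*, *tnnt2a* and *vmhc* had mean counts of 163295, 81943, 57751 and 37309. The atrial myosin gene *myh6* had a mean count of 3281 and the elastin genes *elna* and *elnb*, abundant in the bulbus arteriosus, had 641.6 and 335.1. The count of *nppa*, on the atrial list but also known to respond to injury in the ventricle, was 25667. The genes *elnb*, *elna* and *myh6* were thus read, with counts larger than those of 79.3% (*elnb*) to 97.6% (*myh6*) of the genes listed. For *nppa* this share was 99.8%. The source of the reads of these 4 genes was not tested. Markers of other cells that are known to make or receive retinoic acid were also read: the epicardial genes *tbx18*, *tcf21*, *wt1b* and *wt1a* had 250.2, 211.8, 111.9 and 40.9, and the 5 endothelial and endocardial genes ranged from 392.3 (*nfatc1*) to 3550 (*cdh5*).

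Of the 9 genes matched, 8 had a mean count above that of the median gene, and *cyp26a1* was the exception. The 9 genes together held 2844 reads, which was 0.0241% of the reads assigned to all genes listed. The 4 matched receptors held 1200 of these and the 5 enzymes 1644. Most of the reads in either group came from a single gene, *rarga* among the receptors and *aldh1a2* among the enzymes.

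**Figure D1:**
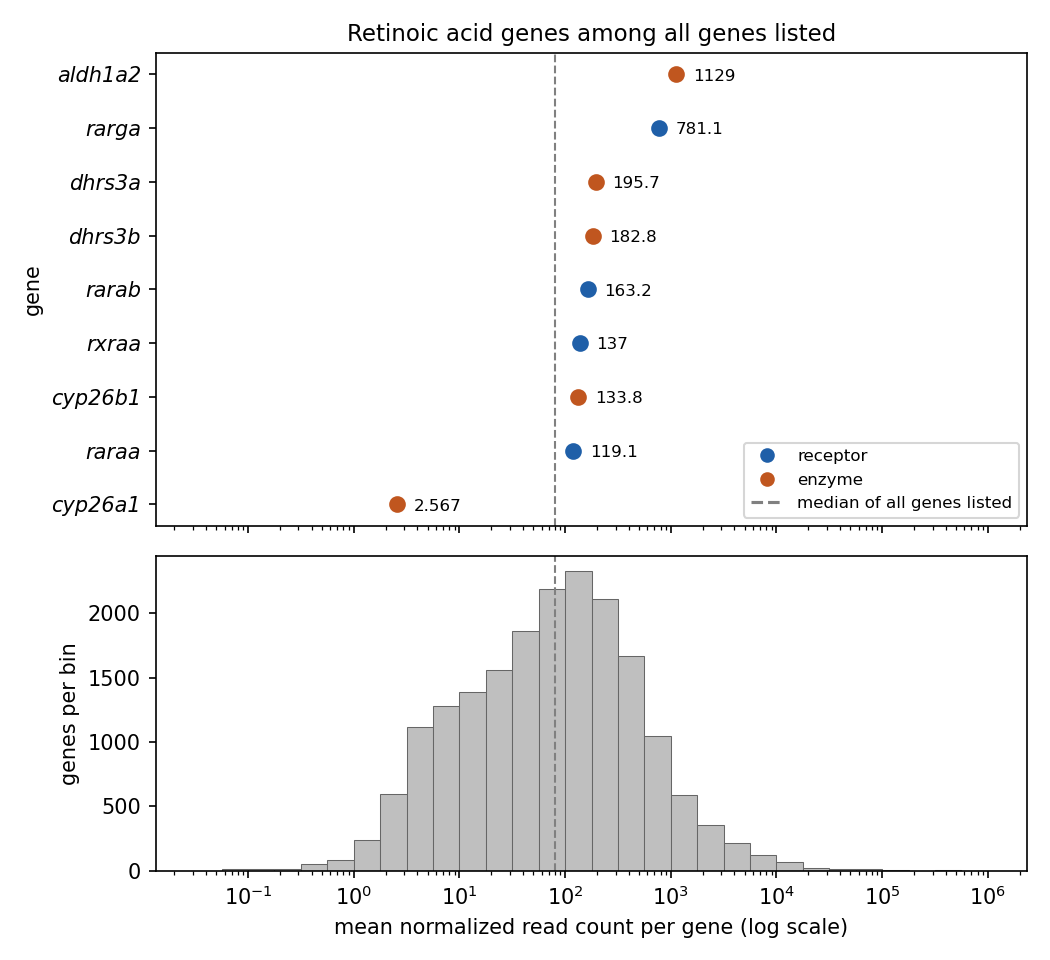
Mean normalized read count of the 9 matched retinoic acid genes (upper panel, receptors in blue and enzymes in orange) above the distribution of all 18987 genes listed (lower panel, genes per bin), both on a log scale and with the median gene at 79.6 as a dashed line. The points of *aldh1a2* (1129) and *rarga* (781.1) lie to the right of the others, 6 genes lie between 119.1 and 195.7, and *cyp26a1* (2.57) lies far to the left.

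Among the receptors, *rarga* (ENSDARG00000034117), which encodes an RAR of the gamma type, had a mean count of 781.1. This was larger than the count of 90.6% of the genes listed and amounted to 0.00661% of the assigned reads. The 2 RAR alpha genes had fewer reads: *rarab* (ENSDARG00000034893) had a mean count of 163.2 and *raraa* (ENSDARG00000056783) one of 119.1. Of the reads of these 3 RAR genes, 73.5% were assigned to *rarga*, 15.3% to *rarab* and 11.2% to *raraa*. The fourth RAR gene, *rargb*, is not part of these shares. In the RefSeq annotation of GRCz12tu the span of *rarga* overlaps that of *nr1d4a*, a nuclear receptor gene of the Rev-erb family, for which the mean count was 17.2. It was the single matched member whose span overlapped a protein-coding gene there, and how reads in an overlap were counted is not given in the sources used here.

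The RXR member *rxraa* (ENSDARG00000057737), which encodes a partner of the RARs, had a mean count of 137.0, larger than that of 61.8% of the genes listed. The other RXR genes spanned a wide range of read counts. The beta genes *rxrba* and *rxrbb* had mean counts of 330.3 and 221.7, the gamma genes *rxrga* and *rxrgb* had 53.6 and 47.6, and *rxrab*, the second alpha gene, had 3.60. Both copies of the beta and gamma types were read, whereas few reads of the alpha type were *rxrab*. Over all 9 RAR and RXR genes matched, *rarga* held 42.1% of the reads.

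Among the enzymes, *aldh1a2* (ENSDARG00000053493), which carries out the synthesis of retinoic acid from retinal, had the most reads, with a mean count of 1129. This exceeded the count of 93.4% of the genes listed and made up 0.00954% of the assigned reads. A second aldehyde dehydrogenase of the retinoid list, *aldh8a1*, had a mean count of 11.6. The name of the paralog *aldh1a3* matched 0 rows, and it was not analysed here.

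The 2 degrading enzymes differed in reads. The *cyp26b1* gene (ENSDARG00000077121) had a mean count of 133.8, larger than that of 61.2% of the genes listed, whereas *cyp26a1* (ENSDARG00000033999) had a mean count of 2.57, larger than that of 4.00%. Of the reads assigned to either, 98.1% were *cyp26b1* and 1.88% were *cyp26a1*. *cyp26c1* was not analysed here, as its name matched 0 rows.

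The 2 *dhrs3* genes, whose enzymes reduce retinal to retinol, were both read. The mean count was 195.7 for *dhrs3a* (ENSDARG00000044982) and 182.8 for *dhrs3b* (ENSDARG00000044803), which were 51.7% and 48.3% of the reads of the pair. These counts were larger than those of 69.0% and 67.7% of the genes listed. Because the spread between samples is unknown, it was not tested whether the counts of these copies differ, nor those of *raraa* and *rarab*.

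The wider pathway, with the 10 chosen genes included, was described with 8 lists holding 79 gene names, of which 61 matched a row. Among the 61 are the 9 matched chosen genes, 8 of them above the median gene and *cyp26a1* with a mean count under 10. Of these 61 genes, 33 had a count above that of the median gene and 10 had a mean count under 10. For comparison, 15560 of all 18987 genes listed had a mean count of at least 10, and 9 had a mean count of 0. Whether a name without a row stands for a gene with few or no reads was not tested. The coregulators that RARs and other nuclear receptors recruit were read throughout: all 7 exceeded the median gene, with the corepressor gene *ncor1* at 2767 and the coactivator gene *ncoa2* at 1017.

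**Figure D2:**
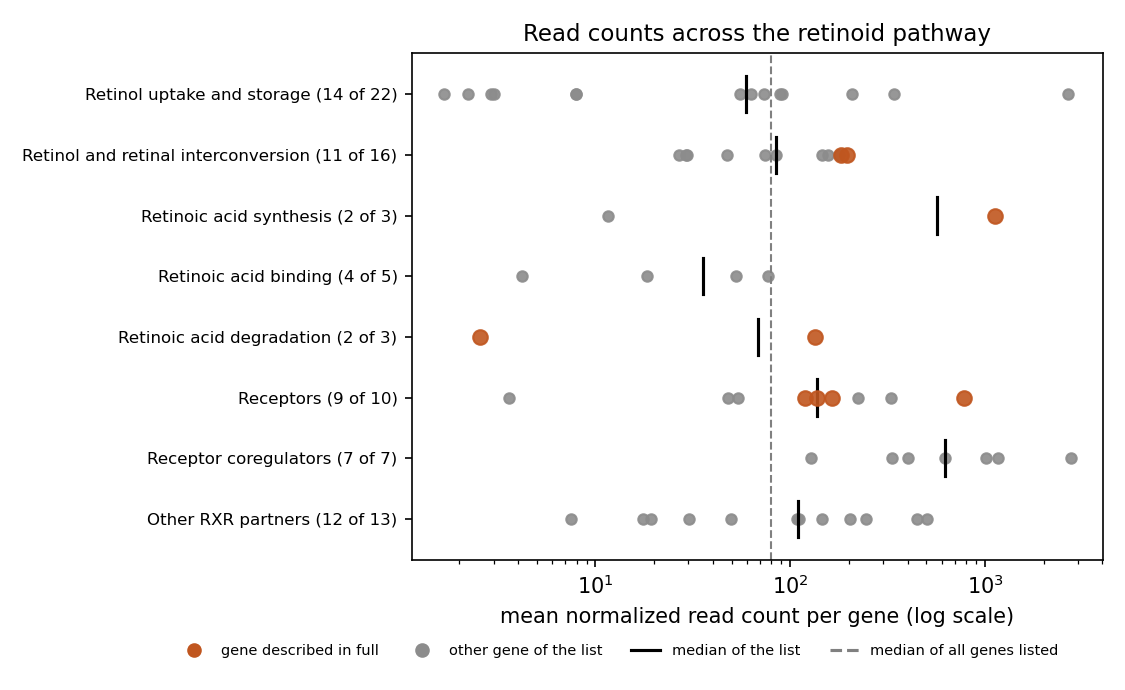
Mean normalized read count (log scale) of each matched gene in 8 lists of the retinoid pathway, with the number matched of the number in the list beside its name, the list's median as a black bar and the median of all genes listed as a dashed line; the 9 genes described in full are orange. All 7 coregulators lie to the right of the dashed line and all 4 retinoic acid binding proteins to its left, and the 2 degrading enzymes lie on either side of it.

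Of the genes that take up, carry and store retinoids, 14 of 22 names matched. The most reads were those of *rbp4*, the carrier of retinol in blood plasma, with a mean count of 2663, followed by *bco2a*, a carotenoid-cleaving oxygenase, with 340.6 and *rbp2a*, a cellular retinol binding protein, with 206.4. The retinol esterification genes *lrata* and *lratb* had mean counts of 2.23 and 1.66. In this list, 6 of the 14 genes had a mean count under 10.

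Of the enzymes that interconvert retinol and retinal, 11 of 16 names matched, and their counts ranged from 26.9 to 195.7. The 2 *dhrs3* genes had the most reads in this list, followed by *rdh10a* with 177.9, whose enzyme oxidizes retinol to retinal. Its paralog *rdh10b* had 145.9. The other matched genes of this list that oxidize or reduce retinoids reached down to *rdh12* with 26.9. The 4 matched retinoic acid binding proteins, which hold retinoic acid in the cytoplasm, had counts of 76.6 for *crabp2a*, 52.9 for *crabp2b*, 18.5 for *crabp1a* and 4.22 for *crabp1b*, and none exceeded the median gene.

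Among other nuclear receptors that pair with RXRs, 12 of 13 names matched, with counts from 7.48 for *nr1h5*, a farnesoid X receptor type gene, to 501.6 for *pparab*, a receptor for fatty acids. The thyroid hormone receptor gene *thrb* had 447.8 and the liver X receptor gene *nr1h3* had 246.1. Of these 12 genes, 7 exceeded the median gene.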

How the data were processed

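Poly-A RNA was sequenced by the authors from pools of ventricles, and reads were aligned to GRCz10. The submitters' processing notes name TopHat2 2.1.0, HTSeq 0.6.0 and DESeq2, without settings. The deposited signal is the authors' mean normalized count per gene, in units of reads, averaged over their modelled samples. The table has 0 columns of values per sample. Its other 7 numeric columns hold the authors' own comparison of exercised with non-exercised fish (effect sizes on 2 scales, an error, a test statistic and raw and adjusted significance) and were not used. The planned count test of exercise was therefore not run.

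Gene names were matched with case ignored. Each count was placed as the percentage of genes with a smaller count, a calculation tested on simulated data. Gene names given in full are the 10 chosen genes, the 3 highest of each list (1 of them is not reported here) and paralogs of the chosen genes; *myh6* and the other markers were on a fixed list, and the crabp genes, *aldh8a1*, *rdh10b*, *rdh12*, *lrata*, *lratb*, *nr1h5* and *nr1d4a* were added after values were seen. The chosen genes and the lists were set with earlier results of these data known. The 3 macrophage names matched 14 rows, 12 of them rows of *mfap4*, with the lowest mean count at 2.49. The median of 33.7 over these rows therefore mostly describes *mfap4*. The other macrophage genes, *csf1ra* and *mpeg1.1*, had mean counts of 247.9 and 234.9, both above the median gene. Of the erythrocyte and fibroblast lists, *hbaa1* had a mean count of 25133 and *col1a1a* one of 12777. Python 3.11.15, numpy 2.4.6, pandas 2.3.3 and matplotlib 3.10.9 were used.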

Additional observations from a re-analysis of the deposited data

How the results depend on the processing

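When the background was limited to the 15560 genes with a mean count of at least 10, whose median was 121.3, 7 of the 9 matched genes had a count above the median gene, against 8 with all genes listed: *raraa* moved below it, and *cyp26a1* left the background. The share of genes with a smaller count fell for the 8 remaining genes by 1.46 to 9.13 percentage points, since removing genes with few reads can only lower it. No lengths of transcripts or proteins were at hand, so counts per kilobase, the shares within pairs on that scale, protein identity and promoter elements were not run. No paired analysis was possible because the table has no values per sample. Because values per sample were lacking, leaving out each replicate, the other normalization, the count filter and the test of exercise were not run. Among the 9 matched genes, *cyp26a1* rests on the fewest reads, with a mean count of 2.57.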

Other observations

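A search of the gene descriptions for retinoic, retinol, retinoid or retinal, added after the data were seen, found 40 genes, 17 of them outside the lists above. The word retinal can also refer to the retina of the eye, so these are counts of matching descriptions and not of retinoid genes. Among the 17, the most reads were those of *rai14*, a gene named for its induction by retinoic acid, with a mean count of 2405. Next was *retsat*, the retinol saturase gene, with 1189. The count of *retsat* was larger than that of 93.6% of the genes listed, next to the 93.4% of *aldh1a2*. A second gene listed as *RETSAT* (ENSDARG00000070140) had a mean count of 17.8. The visual cycle genes *rpe65b* and *rpe65c* had mean counts of 28.1 and 5.49.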
